A study of Mus musculus with 14 samples.

Results

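Endoplasmic reticulum chaperones fold the proteins that a cell sends to its membranes and to the outside, and Xbp1 encodes a transcription factor that raises many of them under stress. The set described here is 9 genes taken by symbol: Hspa5, Hsp90b1, Calr, Pdia4, Creld2, Sdf2l1, Dnajb9, Manf and Xbp1. All 9 were found among the 33006 genes of the sorted-cell table and among the 20856 symbols shared by the accumbens tables. The study compared male C57BL/6 mice injected into the peritoneum with morphine sulfate against mock mice injected with saline, and no other allele or agent is named; the labels give no dose and no interval between injection and dissection. Oligodendrocytes, the myelin-forming cells, were stained and purified by flow sorting from the whole brain at an age of 70 days, giving 3 morphine and 3 mock libraries, numbered here as their columns are. The nucleus accumbens was profiled by Drop-seq, which tags each transcript of a cell with a unique molecular identifier (UMI), in 4 morphine and 4 mock pools of 2 mice each. In both groups pools 1 and 2 came from mice of 37 to 45 days and pools 3 and 4 from mice of 78 to 82 days. All of the tissue was dissociated with papain, in both groups.

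New secretory proteins enter the endoplasmic reticulum unfolded, and Hspa5 (also called BiP) is the Hsp70 chaperone that holds them there. When unfolded proteins build up, the sensors Ire1 (gene Ern1), Atf6 and Perk (gene Eif2ak3) start the unfolded protein response; Ire1 splices the Xbp1 transcript so that it yields an active factor, and Xbp1 and Atf6 then raise chaperone genes. Oligodendrocytes make large amounts of membrane lipid and protein for myelin, and the response is known to be engaged in these cells when myelin is made or damaged. Gene counts do not separate the spliced from the unspliced Xbp1 transcript, so the values for Xbp1 are of both forms together.

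Between 14989118 and 23456702 reads per sorted library fell in genes. The 12 markers of mature oligodendrocytes summed to 20220 to 20910 counts per 1000000 (CPM) in morphine and 18250 to 19140 CPM in mock libraries, which fits the label of the sort. Markers of other cells were far lower. In morphine libraries those of astrocytes summed to 624.7 to 687 CPM, of microglia to 71.6 to 75.7 CPM and of endothelial cells to 50.7 to 69.3 CPM; in mock libraries the sums were 599 to 721 CPM for astrocytes, 69.4 to 83.3 CPM for microglia and 76.6 to 81.9 CPM for endothelial cells. Of the 12 markers in each list, 3 rose and 4 fell for mature oligodendrocytes, 3 rose and 1 fell for astrocytes, 0 rose and 2 fell for microglia, and 0 rose and 4 fell for endothelial cells. No marker of these 4 lists was at 0. The 8 markers of newly formed oligodendrocytes summed to 545.3 to 564 CPM in morphine and 474.6 to 548.8 CPM in mock libraries. Of them, 3 rose and 1 fell. The 12 markers shared by medium spiny neurons summed to 216.4 to 224.4 CPM in morphine and 192.1 to 199.4 CPM in mock libraries. Of those, 1 rose and 1 fell. The part of other cells in the results was not tested. In bulk libraries, fewer cells of a type and less of an RNA per cell cannot be told apart. In the accumbens, 33225 of 36000 barcodes were kept, with 6761888 to 21195287 UMIs per morphine pool and 7910574 to 24163551 UMIs per mock pool.

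In the sorted oligodendrocytes 8 of the 9 genes fell with morphine and 0 rose, by between 1.52-fold and 3.01-fold, and Dnajb9 was the exception. Across all 15759 genes tested with edgeR's quasi-likelihood test, 6.67% were called lower and 8.09% higher at an adjusted p under 0.05. The 9 genes were chosen with earlier results of these data known, so these shares are a description and no test of the set. The median log2 fold change was -1.03 over the 9 genes and -0.0213 over all genes tested. For the 8 genes that fell, every morphine library was below every mock library, a pattern seen in 14.0% of all genes tested. The authors' deposited table gave a negative log2 fold change for the same 8 genes, with an adjusted p of 2.5e-08 for the weakest of them (Pdia4). For Dnajb9 the authors' deposited table gave a log2 fold change of 0.01 and an adjusted p of 0.974.

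Hspa5 (chr2:34771970-34777547, plus strand; all loci are GENCODE vM21 on GRCm38) showed the widest gap of the set. Its scaled counts were 173, 155 and 164 CPM in morphine libraries 1 to 3, against 515, 470.1 and 496 CPM in mock libraries 1 to 3. The lowest mock library was well above the highest morphine library, and each group was tight. The log2 fold change was -1.59 (SE 0.058, adjusted p = 3.71e-14), a level 3.01-fold lower.

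The genes whose products work beside Hspa5 did not move together. Sdf2l1 (chr16:17130138-17132383, minus strand), a soluble partner of Hspa5 complexes that slows the aggregation of unfolded proteins, had 7.71, 7.36 and 6.55 CPM in morphine libraries, against 18.6, 12.8 and 21.5 CPM in mock libraries. The mock libraries were spread more widely than for the other genes, yet none reached down to the morphine range, and the log2 fold change was -1.31 (SE 0.151, adjusted p = 1.37e-06). Dnajb9 (chr12:44205559-44210326, minus strand; also ERdj4), a J-domain co-chaperone of Hspa5 and an established Xbp1 target, had 32.5, 36.5 and 35.2 CPM in morphine libraries, against 35.9, 31.9 and 37.3 CPM in mock libraries. The morphine values lay inside the mock range. The log2 fold change of Dnajb9 was -0.01 (SE 0.080, adjusted p = 0.945), with a 95% interval from -0.181 to 0.153, so that a fall of the size seen in the other 8 genes lay outside its interval.

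Hsp90b1 and Calr, with Hspa5 the most abundant of the set, fell by less. Hsp90b1 (chr10:86690209-86705509, minus strand; Grp94), the Hsp90 of this compartment, had 182, 169 and 167 CPM in morphine libraries, against 279.9, 266 and 275 CPM in mock libraries. Calr (chr8:84841850-84846934, minus strand), the calcium-binding lectin chaperone calreticulin, had 192, 179.8 and 182 CPM in morphine libraries, against 336, 265 and 329 CPM in mock libraries. Mock library 2 was the lowest of its group for both genes and still above all morphine libraries. The log2 fold changes were -0.66 for Hsp90b1 (SE 0.056, adjusted p = 1.32e-08) and -0.75 for Calr (SE 0.073, adjusted p = 1.02e-07). The exons of Hsp90b1 overlap those of 1810014B01Rik on the other strand, and whether counting used strand is not given in the sources used here. They also overlap those of Gm15344 and Gm25745 on the same strand, so the counts of Hsp90b1 are less certain.

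Pdia4 and Creld2 fell as well. Pdia4 (chr6:47796141-47813430, minus strand; ERp72), a protein disulfide isomerase, had 43.6, 43.0 and 40.2 CPM in morphine libraries, against 69.0, 65.8 and 57.9 CPM in mock libraries, a log2 fold change of -0.61 (SE 0.074, adjusted p = 3.16e-06). The exons of Pdia4 overlap those of Mir704 on the same strand. Creld2 (chr15:88819646-88826683, plus strand), a secreted and resident protein with EGF-like domains that is induced by stress of this compartment, had 9.99, 9.45 and 9.70 CPM in morphine libraries, against 22.7, 21.8 and 25.5 CPM in mock libraries. The morphine libraries of Creld2 lay close together, far below the lowest mock library, and the log2 fold change was -1.26 (SE 0.101, adjusted p = 5.6e-09).

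Manf (chr9:106838312-106891979, minus strand), which encodes a secreted factor that is held in the endoplasmic reticulum and protects cells from its stress, had 14.4, 13.3 and 16 CPM in morphine libraries, against 32.2, 28.5 and 28.5 CPM in mock libraries. Its log2 fold change was -1.03 (SE 0.094, adjusted p = 5.06e-08); its exons overlap those of Dcaf1 on the other strand and of Rbm15b on the same strand, so its counts are less certain. Xbp1 itself (chr11:5520659-5525893, plus strand) had 17.5, 15.8 and 15.5 CPM in morphine libraries, against 36.8, 31.1 and 39.8 CPM in mock libraries, and its log2 fold change was -1.15 (SE 0.096, adjusted p = 1.25e-08). For both genes the mock libraries were all higher, without overlap. Xbp1 and 7 of the 8 chaperone and cofactor genes were therefore lower in the same 3 libraries.

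**Figure D1:**
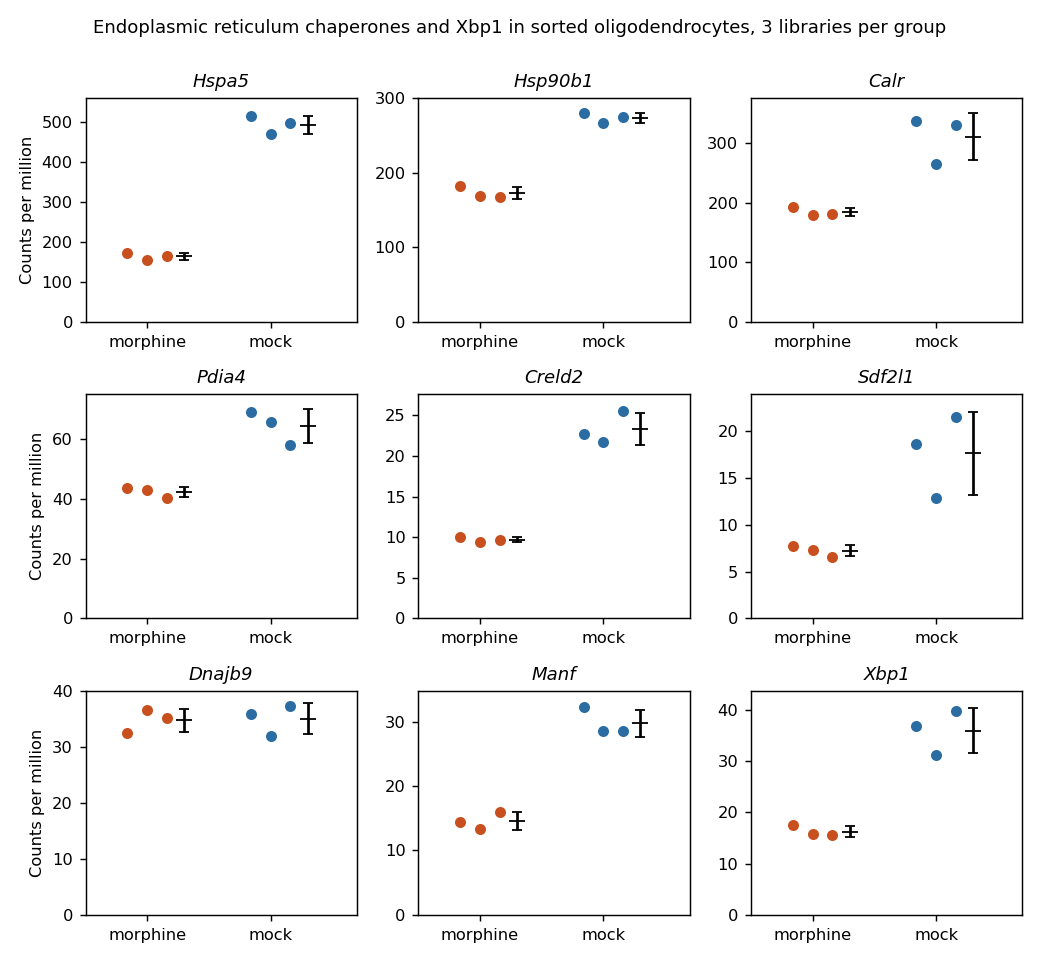
Scaled counts per 1000000 (CPM, linear y axis from 0) of each gene in sorted oligodendrocytes, with 1 point per library, morphine left and mock right, and mean ± SD (n = 3) in black. The morphine points lie below all mock points for 8 genes, such as 155 to 173 against 470.1 to 515 CPM for Hspa5, and the groups overlap for Dnajb9.

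On a scale per length (CPM per kilobase of exon), the order of the levels differed between the groups. The length was that of all annotated exons of a gene joined over its transcripts, such as 4229 bases for Hspa5 and 3524 for Manf. Which transcripts these cells make was not examined, so the order between genes depends on the annotation. In morphine libraries Calr stood highest at 64.1 ± 2.36, followed by Hsp90b1 at 42.8 ± 2.10 and Hspa5 at 38.8 ± 2.11, while in mock libraries Hspa5 stood highest at 117 ± 5.32, followed by Calr at 108 ± 13.6 and Hsp90b1 at 67.9 ± 1.7 (SD, n = 3 each). Hspa5 and Calr differed by less than the SD of Calr in mock libraries, and Hsp90b1 and Hspa5 differed by less than the sum of their SDs in morphine libraries. At the low end, Creld2, Sdf2l1, Xbp1 and Manf were at 7.11, 6.51, 5.002 and 4.14 in morphine and at 17.1, 15.9, 11.1 and 8.43 in mock libraries. Dnajb9, at 13.6 in morphine and 13.7 in mock libraries, was above Creld2 and Sdf2l1 in morphine and below both in mock libraries.

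Atf6 and Xbp1 are known to act on chaperone genes through the endoplasmic reticulum stress response element, so the promoters of the set were searched for it. The letters searched, on both strands, were CCAAT, 9 bases of any kind, then CCACG, in RefSeq windows of 250 bases before to 50 bases after each start (GRCm38.p6). The element was found in 0.119% of 32851 windows. Of the 8 genes with a window (Manf had none), 4 held it. The matches are printed below on the strand that reads CCAAT first, with the element in capitals and 6 bases before and 5 after it, to show the 9 free bases between the ends, which the search fixed.
Hspa5 element: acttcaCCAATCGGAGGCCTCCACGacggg
Hsp90b1 far element: acaagcCCAATCGCAAGGAGCCACGcttcg
Hsp90b1 near element: aactcaCCAATCGTGCCTCACCACGcactc
Calr element: tatgggCCAATGAGGGTCGACCACGcgttg
Creld2 element: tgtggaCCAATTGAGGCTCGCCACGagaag

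The stretches shown are chr2:34772019-34772048, plus strand, for Hspa5; chr10:86705633-86705662, minus strand, and chr10:86705527-86705556, plus strand, for Hsp90b1; chr8:84847069-84847098, plus strand, for Calr; and chr15:88819515-88819544, minus strand, for Creld2. The Hspa5 element lay 65 to 47 bases before the RefSeq start, inside the first exon of a GENCODE transcript that starts further upstream. Those of Hsp90b1 lay 212 to 194 and 107 to 89 bases before the start, that of Calr 162 to 144 bases and that of Creld2 126 to 108 bases. The sequence around the elements outside annotated exons, on the strand of the gene, is shown next for Hsp90b1 (chr10:86705510-86705694), Calr (chr8:84846935-84847181) and Creld2 (chr15:88819396-88819645); an element that begins with CGTGG there is one that reads CCAAT first on the other strand. Sdf2l1 (chr16:17132384-17132633) is added as the gene with the largest fall among those without the element.
Hsp90b1 upstream: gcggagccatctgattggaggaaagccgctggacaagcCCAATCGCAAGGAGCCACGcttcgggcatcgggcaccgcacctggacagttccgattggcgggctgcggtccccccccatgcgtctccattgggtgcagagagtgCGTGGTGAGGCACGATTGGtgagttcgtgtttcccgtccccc
Calr upstream: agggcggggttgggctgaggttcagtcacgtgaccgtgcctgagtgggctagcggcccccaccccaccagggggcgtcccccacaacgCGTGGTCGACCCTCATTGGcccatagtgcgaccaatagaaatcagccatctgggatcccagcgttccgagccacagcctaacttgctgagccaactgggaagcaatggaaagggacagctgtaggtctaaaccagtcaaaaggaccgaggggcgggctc
Creld2 upstream: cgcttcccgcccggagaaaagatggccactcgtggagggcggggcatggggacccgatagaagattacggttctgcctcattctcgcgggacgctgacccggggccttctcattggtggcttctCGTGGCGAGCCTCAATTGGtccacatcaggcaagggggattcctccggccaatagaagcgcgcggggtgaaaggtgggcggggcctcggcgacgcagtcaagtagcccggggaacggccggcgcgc
Sdf2l1 upstream: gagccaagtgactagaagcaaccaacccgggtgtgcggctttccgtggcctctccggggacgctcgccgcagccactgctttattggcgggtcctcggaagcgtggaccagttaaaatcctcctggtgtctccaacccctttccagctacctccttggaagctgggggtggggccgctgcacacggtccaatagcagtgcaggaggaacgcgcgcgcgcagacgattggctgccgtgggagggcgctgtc

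All 4 genes with the element fell in sorted cells, as did Pdia4, Sdf2l1 and Xbp1 among the 4 without it; the gene that did not fall, Dnajb9, was without it. The shorter form CCACG alone is common, in 32.8% of all windows and in those of 7 of the 8 genes, Dnajb9 included. Among genes of the 4 endoplasmic reticulum lists described next that were tested and had a window, 6 held the element, and 4 of these fell (Pdia6, Dnajc3, Syvn1 and Derl3) while Canx and Ero1b were not called. Of the 48 without it, 4 fell and 3 rose, where 6.67% of all genes tested were called lower and 8.09% higher. A second form of the element was also searched: ATTGG, 1 base of any kind, then CCACG. It was found in 0.0365% of all windows and in 0 of the 8 genes. Herpud1, which rose, and Dnajb11, which fell, held this second form and are counted here among those without the element. A match of letters is a description and not a binding site, and no test was made of these counts. The motifs were chosen with earlier results of these data known.

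The other genes of the compartment were taken in 4 lists, also chosen with earlier results of these data known. Of 20 other chaperones and foldases tested, 5 fell and 0 rose, where 6.67% of all genes tested were called lower and 8.09% higher, and the median log2 fold change of the list was 0.000421. Without mock library 1, 3 fell, and Dnajb11, a J-domain co-chaperone of Hspa5 and the weakest of the 5 (log2 -0.25, adjusted p = 0.0458), was not called under any alternative. The largest falls were those of Pdia6, a disulfide isomerase, at 20.1 ± 1.19 CPM in morphine and 39.5 ± 1.63 CPM in mock libraries (log2 -0.98, adjusted p = 8.56e-09), Hyou1, which exchanges the nucleotide of Hspa5 (log2 -0.56, adjusted p = 4.72e-05), and Pdia3, the isomerase that works with calreticulin (log2 -0.54, adjusted p = 2.22e-06). Of the 9 tested stress sensors and processing genes, edgeR and DESeq2 called 0, and 3 had an unadjusted p under 0.05 in edgeR, as had 24.6% of all genes tested. Ern1 averaged 18.3 ± 0.395 CPM in morphine and 17.6 ± 3.09 CPM in mock libraries, and Atf6 averaged 58.1 ± 5.76 CPM in morphine and 58.1 ± 2.04 CPM in mock libraries. Eif2ak3 averaged 25.8 ± 1.22 CPM in morphine and 27.7 ± 1.21 CPM in mock libraries (SD, n = 3 each).

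Genes of the pathway that destroys misfolded proteins moved both ways. Of 16 tested, 4 fell and 2 rose, beside the same 6.67% lower and 8.09% higher over all genes, and the median log2 fold change was 0.04. Derl3, a derlin of the export channel, was low, at 0.982 ± 0.170 CPM in morphine and 3.71 ± 0.589 CPM in mock libraries, and had a log2 fold change of -1.90 (SE 0.271, adjusted p = 2.15e-05). Edem1, which helps to extract misfolded glycoproteins, and Syvn1, the ubiquitin ligase Hrd1, fell by 0.49 and 0.37 on the log2 scale (adjusted p = 0.000129 and 0.000369). Herpud1, which organises the export complex and is itself induced by stress, rose, with 41.9 ± 3.88 CPM in morphine and 24.3 ± 3.36 CPM in mock libraries (log2 0.78, SE 0.095, adjusted p = 3.03e-06), and Ube2j1, a ubiquitin-conjugating enzyme, rose by 0.44 (adjusted p = 0.000201). Of 23 translocon and glycosylation genes, Sec62, which assists protein entry, rose (log2 0.26, adjusted p = 0.00304, and 0.0502 without morphine library 2) and Sec11c, a signal peptidase subunit, fell (log2 -0.54, adjusted p = 7.11e-05); without mock library 2, 2 of these genes fell.

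**Figure D2:**
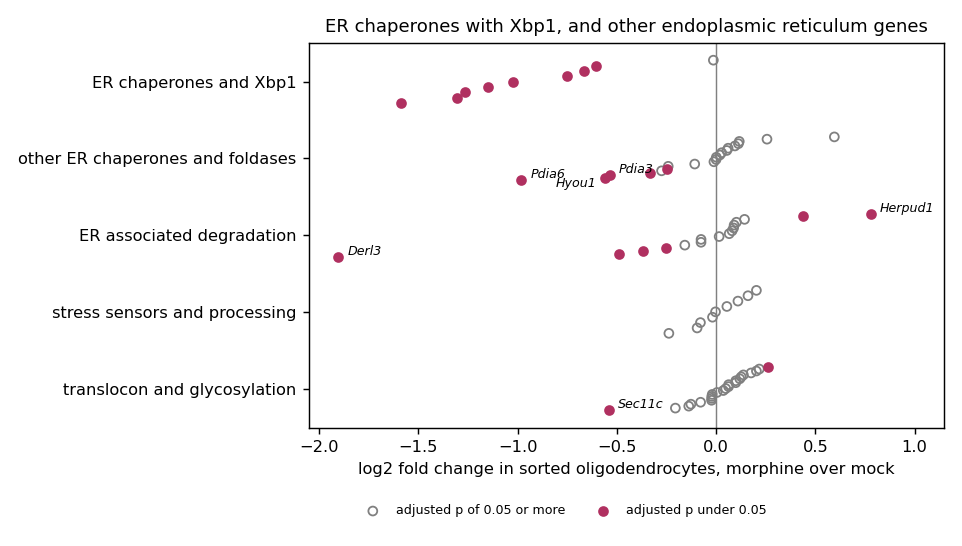
Log2 fold change, morphine over mock, of each gene tested in sorted oligodendrocytes (x axis), with a row per list, filled points for an adjusted p under 0.05 and names for called genes beyond 0.5 in the other lists. The 9 genes have a median of -1.03, while the medians of the other 4 lists lie between -0.003 and 0.0486.

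In mature oligodendrocytes of the accumbens, gated from other mice by markers that include none of the 9 genes (3801 cells), the genes were lower on average for 8 of 9, but by little and within the spread. None of the 9 was called with edgeR or DESeq2, where edgeR called 0.0792% of the 8833 genes tested, 7 in all. At an unadjusted p under 0.05 there were 0 of the 9, against 4.90% of all genes. With the replicate number as a block, 145 genes were called and still 0 of the 9. The median log2 fold change was -0.17 over the 9 genes and 0.00639 over all genes. Hspa5 had 299, 541, 429 and 505 UMIs in morphine pools 1 to 4 and 273, 521, 323 and 793 UMIs in mock pools 1 to 4. Scaled, these were 468, 349, 421 and 409 CPM in morphine pools, against 508, 300.4, 357 and 639.7 CPM in mock pools. The mock pools spanned the morphine range on both sides, with mock pool 4 the highest. The log2 fold change of Hspa5 was -0.13 (SE 0.207, adjusted p = 1).

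Calr came closest to a separation. It had 391, 369.8, 378 and 404 CPM in morphine pools, against 533, 387, 420.2 and 532 CPM in mock pools, a log2 fold change of -0.28 (SE 0.151, adjusted p = 1). The morphine pools lay in a narrow band that mock pool 2 entered and the other mock pools did not. Within same-numbered pools Calr was lower in morphine in 4 of 4 pairs, and with the replicate number as a block its log2 fold change was -0.26 (adjusted p = 0.321 in edgeR); the other 8 genes were lower in 2 or 3 of 4 pairs. Xbp1 was the exception in sign, with 53.2, 60.7, 47.1 and 61.6 CPM in morphine pools, against 48.4, 39.8, 53.1 and 62.1 CPM in mock pools (log2 0.14, SE 0.192, adjusted p = 1), and the groups overlapped. Creld2 and Sdf2l1 rested on few molecules, 94 and 91 UMIs over the morphine pools and 116 and 107 UMIs over the mock pools, so that only large changes could be seen. For Creld2 the log2 fold change was -0.33 with a 95% interval from -0.898 to 0.234, and for Sdf2l1 it was -0.21 with an interval from -0.923 to 0.498. The log2 fold changes of Hsp90b1, Pdia4, Dnajb9 and Manf lay between -0.20 and -0.02.

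**Figure D3:**
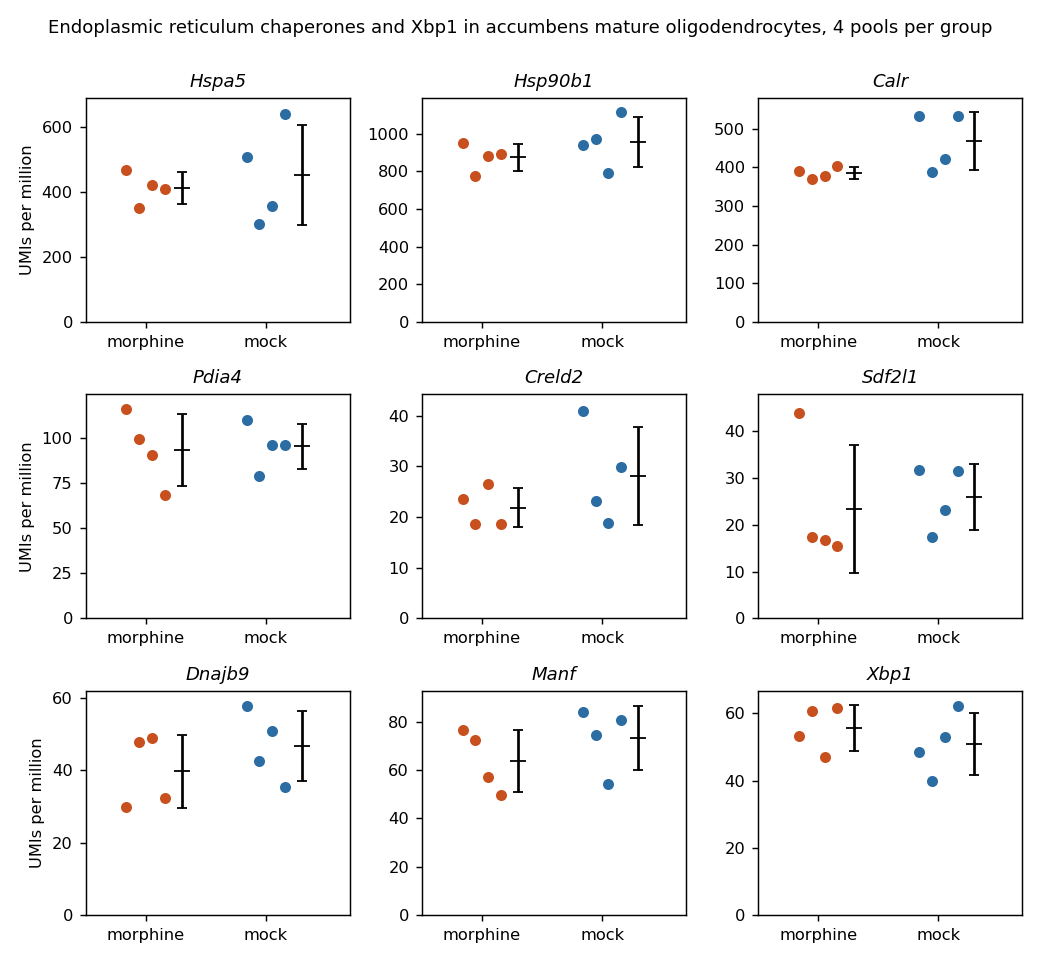
Scaled UMIs per 1000000 (linear y axis from 0) of each gene in mature oligodendrocytes of the accumbens, with 1 point per pool in the order 1 to 4, morphine left and mock right, and mean ± SD (n = 4) in black. The groups overlap for all 9 genes, as in 349 to 468 against 300.4 to 639.7 CPM for Hspa5.

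Set side by side, the 95% intervals of the sorted cells and of the accumbens oligodendrocytes were apart for 8 genes. For Hspa5 they ran from -1.71 to -1.47 in sorted cells and from -0.57 to 0.31 in the accumbens, and for Xbp1 from -1.35 to -0.95 in sorted cells and from -0.26 to 0.55 in the accumbens. Calr was the closest pair, at -0.90 to -0.600 in sorted cells and -0.595 to 0.04 in the accumbens, and only the intervals of Dnajb9 overlapped. The 2 experiments differ in mice, age, brain region, sort and assay, which cannot be told apart here, and the difference between them was not tested. The median share of mitochondrial UMIs per cell also differed between the accumbens groups, 4.82% to 7.01% in morphine pools and 3.01% to 4.58% in mock pools, without overlap, and its part in these values was not tested. In the sorted libraries the mitochondrial share of reads was 16% to 16.9% with morphine and 15% to 16.7% in mock.

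**Figure D4:**
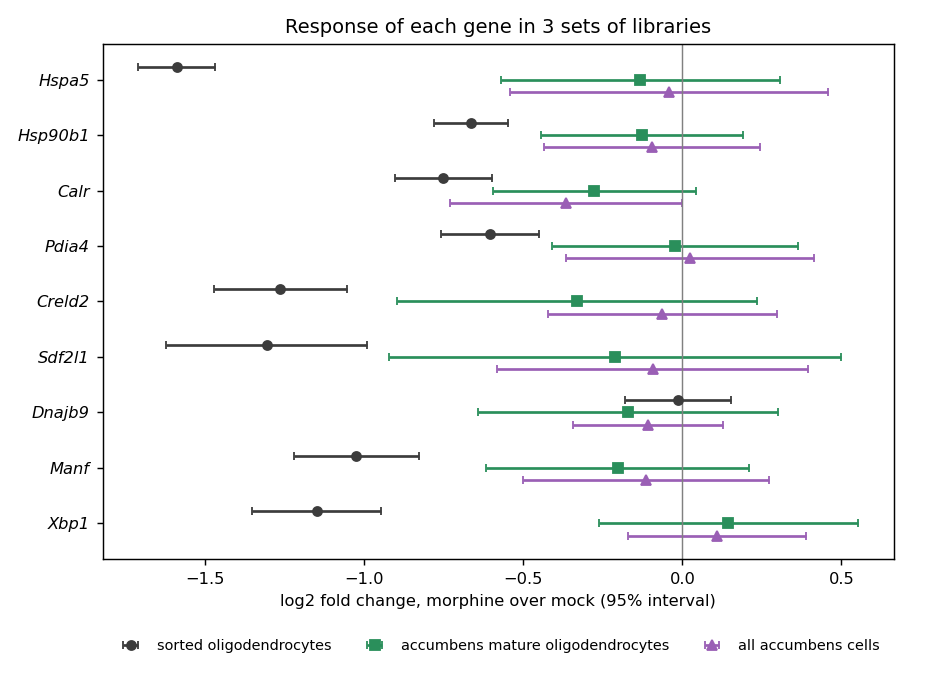
Log2 fold change, morphine over mock, with its 95% interval (x axis) for each gene in sorted oligodendrocytes (n = 3 per group), mature oligodendrocytes of the accumbens and all accumbens cells (n = 4 per group). The sorted intervals lie left of those of the accumbens oligodendrocytes for all genes but Dnajb9, and every accumbens oligodendrocyte interval includes 0.

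Over all accumbens cells together, 7 of the 9 genes had negative and 2 (Pdia4 and Xbp1) positive log2 fold changes, between -0.37 and 0.11, and none was called. No gene of 15172 was called there by edgeR (0%); DESeq2 called 4 genes, none of them among the 9. At an unadjusted p under 0.05 edgeR gave 1 of the 9, Calr, against 1.66% of all genes. Calr had 494, 445, 446 and 555 CPM in morphine pools, against 705, 507, 533 and 757 CPM in mock pools. Only morphine pool 4 overlapped the mock range, and the log2 fold change was -0.37 (SE 0.164, adjusted p = 1 in edgeR). Within same-numbered pools Calr was lower in morphine in 4 of 4 pairs, and the other genes in 1 to 3 of 4; with the block its log2 fold change was -0.35 (adjusted p = 0.989 in edgeR).

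Calr was also the gene with the most even sign over cell types. Its log2 fold change was negative in 13 of the 14 cell types tested, from -0.74 in neuroblasts to 0.30 in dividing progenitors; these types come from the same 8 pools and are no independent repeats. In astrocytes it averaged 391 ± 52.5 CPM in morphine and 565 ± 122 CPM in mock pools (SD, n = 4 each), a log2 fold change of -0.54 (SE 0.178, adjusted p = 0.784). With the replicate number as a block, this was the one value of the set that was called in a cell type (log2 -0.52, adjusted p = 0.0356). Over the 13 other cell types, 0 of 90 tests of the 9 genes were called by edgeR or by DESeq2, where 0.00827% of all gene tests were called, and 7 had an unadjusted p under 0.05, where 2.90% of all gene tests had one. Of these 7, 6 were of Calr, and the other was of Manf in oligodendrocyte precursors (log2 -0.54, adjusted p = 0.997 in edgeR). Hspa5 was negative in 11 of 14 types, from -0.36 in mural cells to 0.39 in dividing progenitors. A direct test of whether mature oligodendrocytes responded unlike all other gated cells called 0 of the 9 genes (adjusted p of 1 for each, 0.0228% of genes called), with differences in log2 fold change from -0.25 for Creld2 to 0.12 for Calr.

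The levels of the genes across accumbens cell types show where the folding machinery is most abundant per UMI. Oligodendrocyte precursors and newly formed oligodendrocytes ranked among the top 3 of 14 types for 6 of the 9 genes each, and ependymal cells for 5. Mature oligodendrocytes had a median rank of 12 and were among the lowest 3 for 5 genes. Hspa5 ran from 1215 ± 245 CPM in ependymal cells (n = 7 pools) over 914 ± 141 CPM in microglia, 869 ± 307 CPM in precursors and 832 ± 278 CPM in newly formed oligodendrocytes to 424 ± 112 CPM in mature oligodendrocytes (SD, n = 8 pools each). Within the lineage, Hspa5, Hsp90b1, Calr and Manf were lower in mature oligodendrocytes than in newly formed oligodendrocytes and in precursors in 8 of 8 pools. The other genes were lower in mature cells than in newly formed cells in 6 pools (Creld2 and Dnajb9) or 7 (Pdia4, Sdf2l1 and Xbp1), and lower than in precursors in 8 pools (Creld2 and Sdf2l1), 7 (Dnajb9 and Xbp1) or 4 (Pdia4). For Manf the mean was 214 CPM in newly formed and 67.7 CPM in mature cells. The share of all genes lower in mature cells in every pool was not counted. These counts are therefore not shown to be particular to the 9 genes. All values are CPM of the type's own UMIs, so a type with a few very abundant transcripts has lower values for the rest. Ranks and spans are of mean log2 CPM after adding a prior count of 1, which lifts types with few UMIs.

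The spans were widest for Sdf2l1, 8.63-fold from newly formed oligodendrocytes to endothelial cells, and for Pdia4, 8.23-fold from ependymal cells (432 ± 157 CPM, n = 7 pools) to interneurons (49.8 ± 5.03 CPM, n = 8 pools). Sdf2l1 was counted in 15 UMIs in all endothelial cells, so the low end of its span is poorly fixed. By mean log2 CPM, Creld2 was highest in ependymal cells (150.3 CPM) and lowest in excitatory neurons (24.2 CPM). Its plain mean was lower still in neuroblasts, at 21.3 CPM on 18 UMIs. Dnajb9 and Xbp1 followed other orders. Dnajb9 was highest in astrocytes at 92.0 CPM and Xbp1 in microglia at 112 CPM, and both were lowest in dividing progenitors, at 12.04 and 21.9 CPM. Of the 117 neighbouring pairs in these orders, 4 had the higher type above the lower in every pool. These were ependymal cells over newly formed oligodendrocytes for Pdia4 (mean difference 1.09 log2 CPM, 7 of 7 pools), ependymal cells over precursors for Creld2 (1.20, 7 of 7 pools), mural cells over neuroblasts for Hsp90b1 (0.64, 8 of 8 pools), and D1 over D2 medium spiny neurons for Calr (0.07, 8 of 8 pools). The two-sided exact sign-flip permutation test over pools cannot give a p below 0.00781 with 8 pools or 0.0156 with 7, so a single pair separated in every pool could not pass the adjustment over 117 pairs; 0 passed, which says little about the order.

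**Figure D5:**
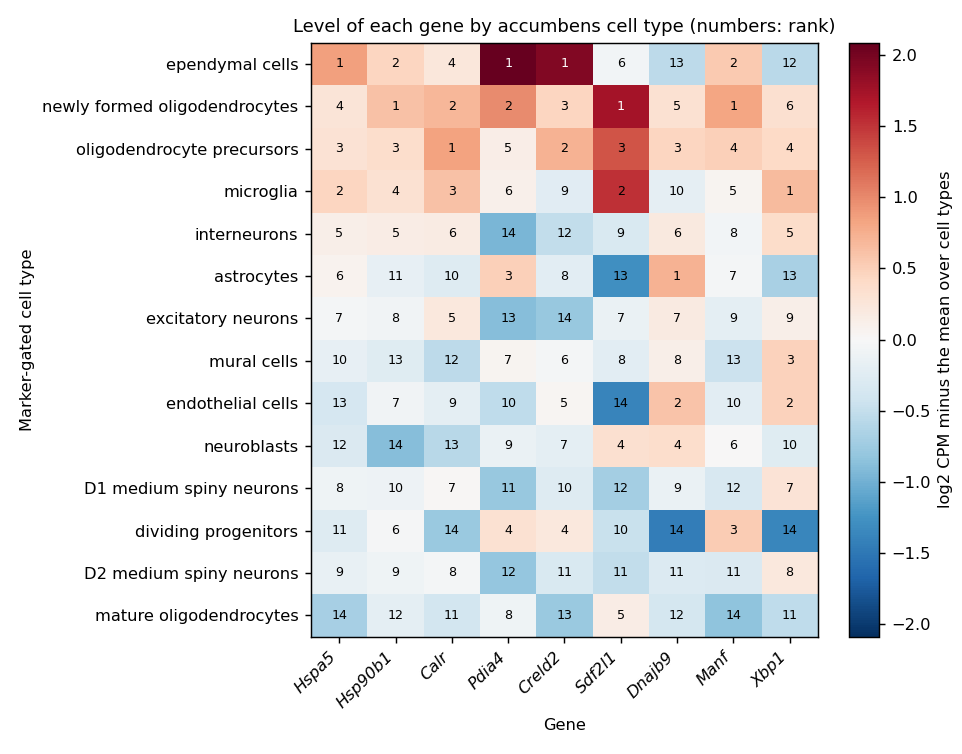
Mean log2 CPM of each gene (columns) in 14 marker-gated cell types of the accumbens (rows, by median rank), coloured by its difference from the gene's mean over types, with the rank printed in each cell. Precursors and newly formed oligodendrocytes are high for most genes and mature oligodendrocytes low, with a median rank of 12, while Dnajb9 and Xbp1 are highest in astrocytes and microglia.

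Across the 14 cell types, the level of Hspa5 followed the mean of the set most closely (Pearson r = 0.863), followed by Calr (0.847) and Hsp90b1 (0.799), and Dnajb9 (0.223) and Xbp1 (0.369) followed it least; each gene is part of that mean. Of 15172 genes, the 5 outside the set with the most similar pattern were Pdia3 (r = 0.882), Pdia6 (0.832), Os9, a lectin of the degradation pathway (0.828), Tmem230 (0.822) and Rpn2, a subunit of the oligosaccharide transferase (0.818). These are descriptions over 14 types that share pools. In accumbens mature oligodendrocytes the log2 fold changes were -0.16 for Pdia3, -0.50 for Pdia6, 0.03 for Os9 and -0.002 for Rpn2, and none of these 4 was called.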

How the data were processed

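Per the labels' protocols, accumbens cells were processed by Drop-seq, and RNA of sorted oligodendrocytes was amplified with a SeqPlex kit and sequenced 1 x 50. Build mm10 and the tools STAR 2.4.2a, HTSeq, Trimmomatic 0.36, DESeq and DESeq2 stand in the submitters' processing notes; which tool served which data is not given in the sources used here. The deposited sorted-cell table holds raw read counts per gene, and the accumbens tables deposited raw UMI counts per barcode. The authors' deposited comparison table holds log2 fold changes and p-values (raw and adjusted), positive where morphine is higher. The authors also deposited there a mean signal per gene (average counts) and a test score, neither of which was used. Rows that name no gene took 69.5% to 74.3% of reads and were left out.

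Barcodes passed with 300 or more genes and no more than 20% of UMIs from mitochondria. Each was assigned to a cell type from marker genes alone (none of the 9), with at least 5 marker UMIs; 3701 barcodes fitting 2 types (11.1%) were removed as doublets and 2054 stayed unassigned. Names therefore mean cells like those the markers define; 7 of the 3801 mature oligodendrocytes lay near the boundary of the assignment. Among the pools, 47 barcode sequences occurred more than once. Replicate 1 pools used another annotation, and 1234 symbols were renamed. The 6119 symbols present only in replicate 1 pools and the 3988 present only in the other pools were left out. UMIs were summed per pool and type (at least 10 cells, 3 pools per group; ependymal cells had 3 mock and excitatory neurons 3 morphine pools). Perivascular macrophages and red blood cells were not tested.

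Morphine was tested against mock with edgeR 4.0.16 (quasi-likelihood, TMM, filterByExpr; R 4.3.3), Benjamini-Hochberg adjusted over all genes of a fit, calls at an adjusted p under 0.05; DESeq2 1.42.0 was an alternative. Fits were checked on simulated data. The replicate is the library or pool; the sorted columns name a group and a number only, and nothing states that libraries came from separate mice, so their p-values measure the spread between these libraries. Standard errors hold only the error of counting and of replicates. In the sorted libraries PCR copies of a molecule are counted as separate reads, while the accumbens counts are of UMIs. In accumbens mature oligodendrocytes same-numbered pools deviated together (r = 0.195 to 0.441). Over all accumbens cells pools 1 and 4 did (r = 0.437 and 0.69), but pools 2 and 3 did not (r = -0.0815 and -0.0531). The main fits of morphine against mock held no block. The numbers, which also mark age, were used for the counts of pairs and as a block in an alternative fit. Neighbouring cell types were compared by two-sided exact sign-flip permutation over pools (log2 CPM, prior count 1). Named genes were all 9, the called genes of each other list (at most 3 largest rises and 3 largest falls), and the 5 with the most similar pattern. Members, lists and motifs were chosen with earlier results of these data known.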

Additional observations from a re-analysis of the deposited data

Results flagged for a closer look

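Of 36 groups of 4 pools examined (9 genes, morphine and mock pools, all accumbens cells and accumbens mature oligodendrocytes), 2 held a pool that stood far from the other 3; chance gives about 1 in 20 such groups. Both were Sdf2l1 in morphine pool 1. Over all cells this pool had 23.0 CPM, against 14.3 to 15.2 CPM in the other morphine pools. In mature oligodendrocytes it had 43.8 CPM, against 15.4 to 17.4 CPM in the other morphine pools, and this value rested on 28 UMIs. The 2 values share the same cells and are not independent.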

How the results depend on the processing

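In sorted oligodendrocytes the 8 genes that fell were called lower under all 10 alternatives (DESeq2 size factors, DESeq2, no filter on low counts, the replicate block, and each library left out); across these the log2 fold change of Hspa5 ran from -1.62 to -1.54 and that of Pdia4 from -0.67 to -0.53. Same-numbered sorted libraries did not deviate together (r from -0.125 to 0.0156), and the block left 8 calls. The log2 fold change of Dnajb9 was 0.0009425 with no filter and ran from -0.07313 to 0.04022 with a library left out. Of alternatives added after the data were seen, DESeq2 size factors, DESeq2, no filter and the block each called 4 of the other chaperones lower, against 5; Dnajb11, named after its values were seen, was not called under any of the 10 (adjusted p 0.0578 to 0.188). Leaving out 1 library gave between 3 and 5 such calls (3 without mock library 1, where Dnajc3 had an adjusted p of 0.0627) and moved the count of translocon genes that fell to between 1 and 2 and of those that rose to between 0 and 1.

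In the accumbens no alternative called any of the 9 genes over all cells or in mature oligodendrocytes, and the block changed no other call than Calr in astrocytes, which made 1 call over the other cell types, against 0. For uncalled genes the sign of the log2 fold change was not fixed, and the cause was not tested. Over all cells it was 0.01127 for Hspa5 with the replicate block; in younger pools 0.09366 for Hspa5, -0.03331 for Pdia4 and 0.03506 for Dnajb9, and in older pools 0.0315 for Creld2. In mature oligodendrocytes it was 0.004871 for Hspa5, 0.1996 for Pdia4 and 0.2979 for Sdf2l1 in younger pools, and -0.08223 for Xbp1 in older pools. With a pool left out, it ran over all cells from -0.1911 to 0.1819 for Hspa5, -0.1612 to 0.009039 for Hsp90b1, -0.08229 to 0.142 for Pdia4, -0.1508 to 0.03329 for Creld2, -0.2763 to 0.02701 for Sdf2l1 and -0.2079 to 0.03929 for Manf, and in mature oligodendrocytes from -0.2881 to 0.09547 for Hspa5 and -0.1418 to 0.08947 for Pdia4. All genes called in mature oligodendrocytes numbered 145 with the block, 31 with DESeq2, 64 with no filter, 15 with age as a covariate, 5 in younger pools, 0 in older pools, and 0 to 19 with a pool left out.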
